A study of Mus musculus with 2 samples.

Results

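The genes described are the ligands and receptors of the tumour necrosis factor (TNF) superfamily. Members were taken by gene symbol, as every array feature whose symbol begins Tnfsf or Tnfrsf or is Tnf, Lta, Ltb, Ltbr, Fas, Fasl, Cd27, Cd40, Cd40lg, Cd70, Ngfr, Eda or Edar. The rule used gene symbols and no measured value, but it was chosen with earlier results of these data known. It found 42 of the 16504 genes on the array, 16 ligands and 26 receptors, from 43 features. The samples are described as thymocytes, T cells still developing in the thymus. They came from null mice (-/-), whose copies of the studied gene are inactive, and from wild-type mice (+/+). No age, strain or treatment is given in the labels, and their source field names thymus where the description names thymocytes. RNA of 3 mice was pooled per genotype, and each of 2 arrays held both pools, with the null pool in the dye Cy5 on the one (the Cy5 array) and in Cy3 on the other (the Cy3 array). The arrays thus form 1 replicate, with 1 pool per genotype.

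Values are log2 ratios of null over wild type, so a negative value is lower in null, and each SD is the technical spread between the arrays. The spread between mice was not measured, so no p-value can be given. A gene was called when it differed at least 1.5-fold (0.58 on the log2 scale) on each array, in 1 direction. The deposited table does not state the direction of its ratios, which is therefore likely rather than certain. It rests on the dye labels and on the 82 exact zeros of the Cy3 array, all of them written as negative zeros, which is what a change of sign leaves. If that column were wild type over null instead, Ltb would average -0.69 and Fas 0.11, and 0 members would be called lower. The log base is not stated either and was taken as log10; if the deposited ratios were log2 already, 0 members would be called lower. The arrays correlated with r = 0.216 over features with a gene symbol, with r = -0.861 over features without one and with r = -0.447 over all features. The file holds ratios and no intensities, so the levels of the genes, the presence of the cells' defining markers and the signal over background could not be examined. In RNA of a mixed tissue, fewer cells of a type and less RNA per cell cannot be told apart.

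TNF ligands are mostly membrane proteins that act as trimers, and many can be shed from the cell. They bind receptors that recruit TRAF adaptors and activate NF-kappaB, or, through a death domain, recruit caspases. In the thymus, thymocytes carry lymphotoxin and RANK ligand, whose receptors on epithelial cells are known for the growth and maturation of the medulla. Death receptors such as Fas are known for the removal of T cells, and costimulatory receptors such as Cd27 for their survival.

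In null, 2 members were called lower and none was called higher. The lower members were Ltb, the chain that anchors lymphotoxin to the membrane, and Fas, a death receptor. The 2 called members are 4.76% of the 42, beside 1.11% of all genes called lower, while 0.412% of all genes were called higher. Of the 42, 21 lay below 0 on both arrays, 5 above 0 on both and 16 on opposite sides, whereas 25.0% of all genes lay below 0 on both arrays. The median of the members was -0.07 (-0.09 on the Cy5 array and -0.05 on the Cy3 array), beside 0.00093 for all genes. Most members differed little, as 28 of them (66.7%) stayed within 0.3 of 0 on both arrays, which 70.7% of all genes also did. Past 1.5-fold on at least 1 array were 4 members, namely Ltb, Fas, Tnfsf11 and Ngfr, a share of 9.52% beside 8.42% of all genes.

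**Figure D1:**
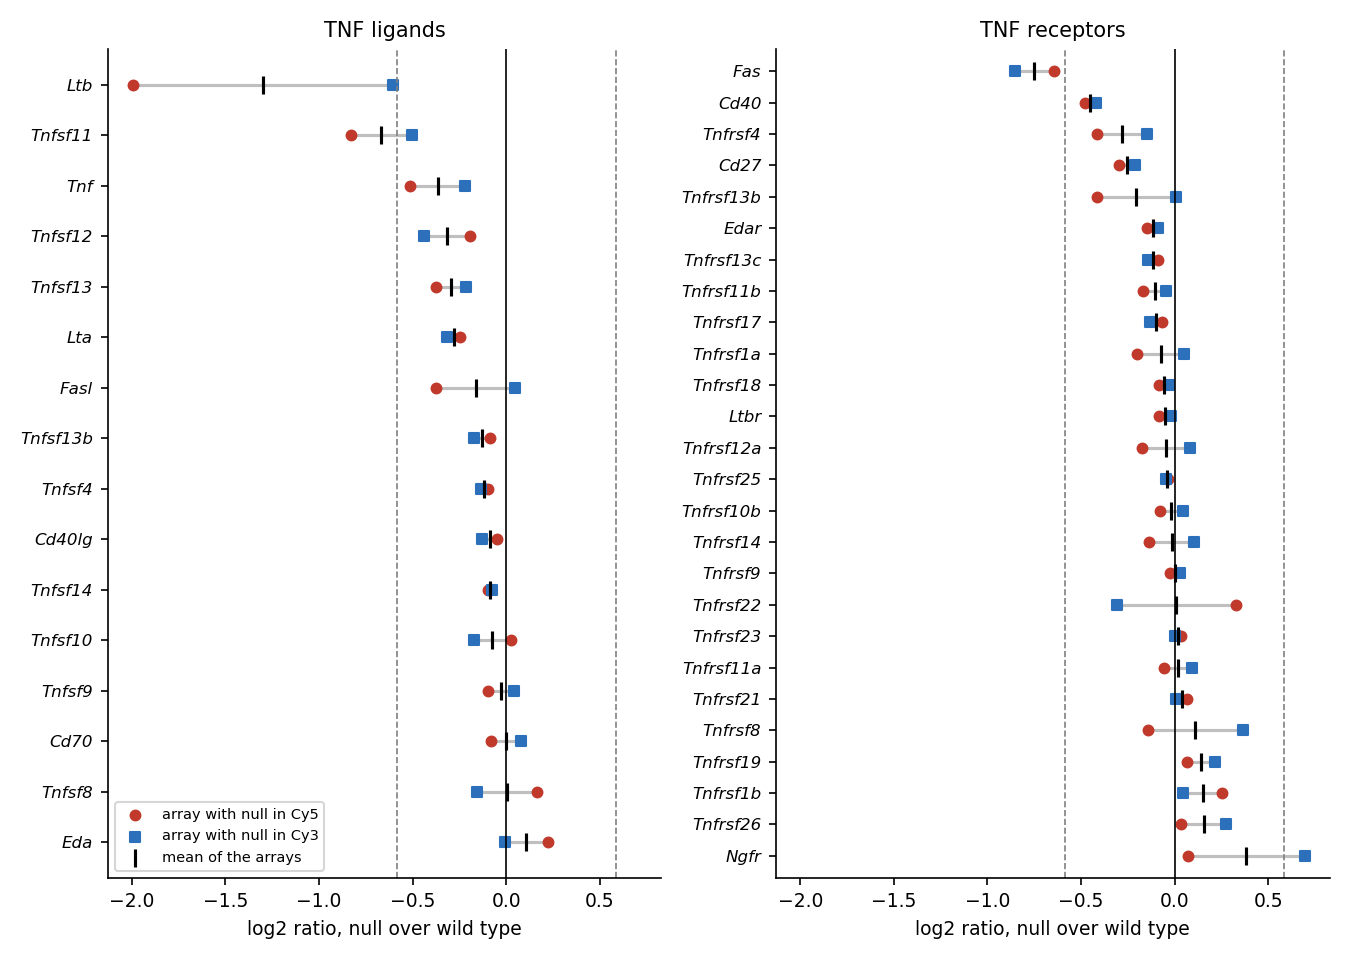
Log2 ratio of null over wild type (x axis) for the 16 TNF ligands (left) and 26 TNF receptors (right), 1 row per gene ordered by the mean; circles are the array with null in Cy5, squares the array with null in Cy3, ticks the mean of the arrays, and dashed lines 1.5-fold. Ltb and Fas are the genes with both points beyond the left dashed line, and most other points lie near 0.

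The promoter sequences of 5 members are shown because they are the called genes, the gene nearest to the call, and the neighbours of Ltb. Tnf, Lta and Ltb lie side by side on chromosome 17 with no other protein-coding gene between them, and all were below 0 on both arrays. The windows run from 250 bases before to 50 after the annotated start, from RefSeq on build GRCm38.p6, in which 32 of the 42 members had at least 1 window. They are chr17:35194257-35194556 (plus strand) for Ltb, chr17:35201958-35202257 (minus strand) for Tnf, chr17:35205302-35205601 (minus strand) for Lta, chr14:78307994-78308293 (minus strand) for Tnfsf11 and chr19:34290409-34290708 (plus strand) for Fas. Capitals mark matches on either strand to the NF-kappaB core (GGG, then 5 bases of any kind, then CC), or to AGGTCA, the half-site of many nuclear receptors.
Ltb: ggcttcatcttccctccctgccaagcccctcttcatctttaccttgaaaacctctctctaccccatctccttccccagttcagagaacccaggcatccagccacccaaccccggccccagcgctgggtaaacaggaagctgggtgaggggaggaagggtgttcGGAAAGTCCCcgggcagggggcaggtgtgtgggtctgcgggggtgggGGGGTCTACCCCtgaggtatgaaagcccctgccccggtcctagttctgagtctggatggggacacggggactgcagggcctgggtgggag
Tnf: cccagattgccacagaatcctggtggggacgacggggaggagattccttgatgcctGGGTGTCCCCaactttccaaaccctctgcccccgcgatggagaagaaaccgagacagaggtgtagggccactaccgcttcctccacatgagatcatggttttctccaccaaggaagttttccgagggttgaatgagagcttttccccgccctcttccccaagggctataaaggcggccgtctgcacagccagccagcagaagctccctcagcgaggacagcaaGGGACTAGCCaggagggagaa
Lta: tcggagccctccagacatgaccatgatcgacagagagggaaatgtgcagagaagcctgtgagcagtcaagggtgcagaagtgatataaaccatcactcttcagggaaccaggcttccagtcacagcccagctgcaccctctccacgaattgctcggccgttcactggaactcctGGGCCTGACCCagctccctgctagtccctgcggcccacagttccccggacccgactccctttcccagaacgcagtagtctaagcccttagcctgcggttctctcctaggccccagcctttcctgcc
Tnfsf11: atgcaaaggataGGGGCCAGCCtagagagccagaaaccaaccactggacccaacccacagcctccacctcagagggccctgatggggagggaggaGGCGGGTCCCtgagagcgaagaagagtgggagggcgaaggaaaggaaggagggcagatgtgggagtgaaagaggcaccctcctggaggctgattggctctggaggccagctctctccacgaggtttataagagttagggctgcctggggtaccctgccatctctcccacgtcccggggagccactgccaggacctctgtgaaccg
Fas: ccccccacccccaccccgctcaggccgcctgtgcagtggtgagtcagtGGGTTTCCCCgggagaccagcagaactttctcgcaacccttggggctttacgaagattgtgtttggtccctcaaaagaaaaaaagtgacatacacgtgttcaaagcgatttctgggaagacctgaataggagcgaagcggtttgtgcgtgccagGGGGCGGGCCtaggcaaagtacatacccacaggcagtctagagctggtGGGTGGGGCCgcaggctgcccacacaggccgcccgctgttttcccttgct
Overlapping matches were counted singly, which gave 4 for the NF-kappaB core in the Ltb window, 3 of them overlapping, 2 each in the Tnf, Lta and Tnfsf11 windows, with those of Lta overlapping, and 3 in the Fas window. No window of the 5 held AGGTCA. Over all 36 windows of members, 69.4% held the NF-kappaB core, beside 50.8% of the 32851 windows in the RefSeq table. AGGTCA was found in 11.1% of the member windows and in 16.3% of all windows. A match describes the letters of the window and is not a binding site.

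Ltb was the lowest member and stood 30th from the lowest of all 16504 genes by mean ratio. Its log2 ratio was -2.00 on the Cy5 array and -0.61 on the Cy3 array, a mean of -1.30 (SD 0.98). Both arrays placed it lower in null, but by 3.99-fold on the one and 1.52-fold on the other, so the second only just passed the threshold. The size of the difference is thus uncertain, and this SD was the widest of the 42. Lta, which forms the lymphotoxin heterotrimer with Ltb and a soluble homotrimer alone, stood at -0.25 on the Cy5 array and -0.32 on the Cy3 array (mean -0.28, SD 0.05). Its ratios lay close together and within the 1.5-fold limits. Ltbr, the receptor of the heterotrimer, stood at -0.08 and -0.02 (mean -0.05, SD 0.05). Tnfsf14, known as LIGHT and the other ligand of Ltbr, stood at -0.10 and -0.07 (mean -0.09, SD 0.02). These 4 genes were grouped as the lymphotoxin class, which thus includes a receptor and LIGHT. Tnfrsf14, a receptor of LIGHT described below, was not placed in it. All 4 lay below 0 on both arrays, Ltbr and Tnfsf14 by small amounts, and Ltb alone passed the rule.

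Tnf, the inflammatory cytokine that gives the family its name, stood at -0.52 on the Cy5 array and -0.22 on the Cy3 array (mean -0.37, SD 0.21). It was below 0 on both arrays and did not pass the rule. Tnfrsf1b, the TNF receptor without a death domain, stood at 0.25 and 0.04 (mean 0.15, SD 0.15). Another set of ligand genes on chromosome 17, Tnfsf9, Cd70 and Tnfsf14, had means of -0.03, -0.0025 and -0.09, all nearer to 0 than Tnf, Lta and Ltb.

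Of 7 death receptors, Fas was the one that passed the rule. Fas, which starts caspase activation when bound by Fasl, stood at -0.64 on the Cy5 array and -0.86 on the Cy3 array (mean -0.75, SD 0.15). The arrays gave similar sizes, 1.56-fold and 1.81-fold lower in null, with a 1.68-fold difference of the mean. Fasl, the ligand that thymocytes and cytotoxic cells use to engage Fas, stood at -0.37 and 0.05 (mean -0.16, SD 0.30). The arrays thus placed it on opposite sides of 0.

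The other death receptors gave smaller or discordant values. Tnfrsf1a, the receptor that carries most signals of soluble TNF, stood at -0.20 on the Cy5 array and 0.05 on the Cy3 array. Tnfrsf10b, the receptor of the ligand TRAIL, stood at -0.08 and 0.04. Both genes were on opposite sides of 0. Tnfrsf25, a death receptor of T cells, stood at -0.03 and -0.05. Edar, the ectodysplasin receptor of skin appendages, stood at -0.15 and -0.09. Those 2 genes were below 0 on both arrays by small amounts. Tnfrsf21, measured by 2 features, stood at 0.07 and 0.01. Its features disagreed on the Cy3 array, as 1 stood at 0.09 and -0.06 and the other at 0.05 and 0.08. Its place above 0 on both arrays thus rests on their average. Ngfr, the low-affinity neurotrophin receptor, stood at 0.07 and 0.69 (mean 0.38, SD 0.44). Ngfr had the highest mean of the 42 genes, and the Cy3 array alone placed it past 1.5-fold. With the Cy3 column read the other way, Ngfr would average -0.31 and Tnfrsf22, at 0.32, would be highest.

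Lymphotoxin and death receptor genes were set side by side by their medians. The median of the 4 lymphotoxin genes was -0.18 (arrays -0.17 and -0.20), and that of the 7 death receptors -0.04 (arrays -0.08 and 0.0084). The difference, lymphotoxin minus death receptors, was -0.14, with -0.10 on the Cy5 array and -0.20 on the Cy3 array. With the Cy3 column read the other way, the medians were -0.023 for lymphotoxin and -0.027 for death receptors, so the order turned. Below 0 on both arrays lay 4 of the 4 lymphotoxin genes and 3 of the 7 death receptors. Without Ltb, whose arrays differed by over 1, the lymphotoxin median was -0.09. With so few genes and no replicate of the pools, whether the classes differ could not be tested.

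**Figure D2:**
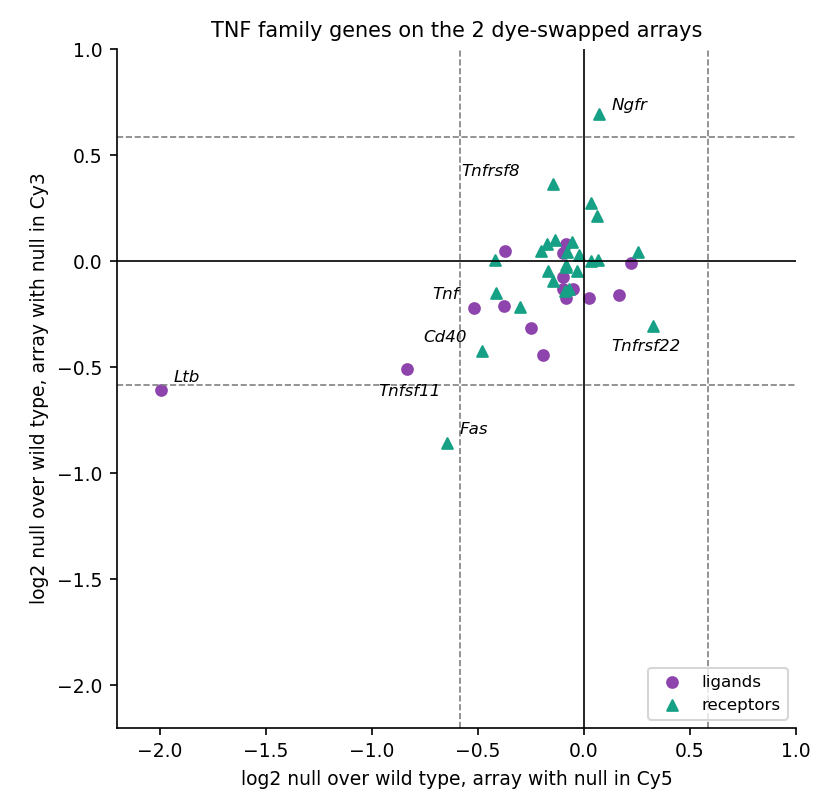
Log2 ratio of null over wild type for each of the 42 genes on the array with null in Cy5 (x axis) and with null in Cy3 (y axis); circles are ligands, triangles receptors, and dashed lines 1.5-fold. Ltb and Fas lie in the lower left corner beyond both dashed lines, Tnfsf11 lies just short of it, and Ngfr lies beyond the line on the y axis alone.

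Tnfsf11, known as RANK ligand, was the member nearest to the rule without passing it. It stood at -0.83 on the Cy5 array and -0.51 on the Cy3 array (mean -0.67, SD 0.23), so that the first array was past the threshold of 0.58 and the second short of it. The mean was a 1.59-fold difference. Its receptor Tnfrsf11a, known as RANK and carried by medullary epithelial cells and osteoclast precursors, stood at -0.06 and 0.09. Tnfrsf11b, the soluble decoy osteoprotegerin that binds RANK ligand, stood at -0.17 and -0.05. Neither receptor of Tnfsf11 was beyond 0.2 from 0 on either array.

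Markers of other cells and of thymocyte stages were read beside these ratios. Of 6 measured markers of mature thymocytes, 5 had both arrays below 0 (median -0.56), and Cd69 (-2.06, SD 0.06) and Klf2 (-0.98, SD 0.25) were called lower. Of 9 markers of thymocytes, 6 did (median -0.33), and Rag1 (-1.13, SD 0.53) and Cd4 (-0.67, SD 0.01) were called lower. Cd69 and Klf2 mark positive selection and exit from the thymus, and Rag1 the rearrangement of receptor genes. Among the other markers of mature thymocytes, S1pr1 stood near 0 (arrays -0.07 and -0.02) and Itgb7 on opposite sides of it (-0.43 and 0.15). Cd3e, Cd8a and Ptcra of the thymocyte list also lay on opposite sides of 0. Of 8 markers of thymic epithelium, 5 lay below 0 on both arrays (median -0.12, arrays -0.06 and -0.31). Among these, Krt5 (-0.98, SD 0.17) and Epcam (-0.69, SD 0.10) were called lower. Krt8, Aire and Krt14 had means of -0.23, -0.21 and -0.03. Foxn1, Psmb11 and Ly75 lay on opposite sides of 0, with means of 0.04, 0.06 and 0.04. Of 8 markers of innate lymphoid and NK cells, which also make lymphotoxin and RANK ligand, 4 lay below 0 on both arrays and none was called (median -0.10). The lowest were Gzmb (-0.57, SD 0.03) and Klrb1c (-0.51, SD 0.16), each past 1.5-fold on 1 array alone. Of the others, 1 lay above 0 on both arrays and 3 on opposite sides. Of 7 markers of stroma and endothelium, 3 lay below and 3 above 0 on both arrays and none was called (median -0.10). The part of any of these cells in the ratios of Ltb, Fas and Tnfsf11 was not tested.

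Costimulatory receptors and their ligands were mostly near 0, with Cd40 the lowest. Cd40, an activating receptor of B cells, dendritic cells and thymic epithelium, stood at -0.48 on the Cy5 array and -0.42 on the Cy3 array (mean -0.45, SD 0.04). The arrays gave nearly the same size, which at 1.37-fold for the mean was under the rule. Its ligand Cd40lg, made by activated T cells, stood at -0.05 and -0.13. Cd27, a survival receptor carried by thymocytes, stood at -0.30 and -0.21 (mean -0.26, SD 0.06). Its ligand Cd70 stood at -0.08 and 0.08, on opposite sides of 0. Tnfrsf4, known as OX40, stood at -0.42 and -0.15 (mean -0.28, SD 0.19), and its ligand Tnfsf4 at -0.10 and -0.13. Tnfrsf18, known as GITR and encoded beside Tnfrsf4 on chromosome 4, stood at -0.08 and -0.03.

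Tnfrsf4 and Tnfrsf18 are high on regulatory T cells. None of the 5 markers of regulatory T cells lay on the same side of 0 on both arrays, and their median was -0.03. Among them, Foxp3 was past 1.5-fold on the Cy5 array at -0.67 but stood at 0.06 on the Cy3 array (SD 0.51). The part of regulatory T cells in the ratios of Tnfrsf4 and Tnfrsf18 was not tested. The remaining costimulatory genes gave discordant values. Tnfrsf9 stood at -0.02 on the Cy5 array and 0.03 on the Cy3 array, and its ligand Tnfsf9 at -0.10 and 0.04. Tnfrsf14, a receptor of LIGHT, stood at -0.14 and 0.10. Tnfrsf8, known as CD30, stood at -0.14 and 0.36 (SD 0.36), while its ligand Tnfsf8 stood at 0.16 and -0.16. All of these lay on opposite sides of 0.

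The genes that serve B cells had values below 0 with 1 exception. Tnfsf13b, the survival factor BAFF, stood at -0.08 on the Cy5 array and -0.17 on the Cy3 array, and Tnfrsf13c, its main receptor on B cells, at -0.09 and -0.14. Tnfrsf17, the plasma cell receptor BCMA, stood at -0.07 and -0.13. These 3 genes were below 0 on both arrays by small amounts. Tnfrsf13b, known as TACI, stood at -0.42 and 0.0048 (SD 0.30), on opposite sides of 0. Tnfsf13, known as APRIL, which supports plasma cells, stood at -0.37 and -0.21 (mean -0.29, SD 0.11). Of 6 measured B cell markers, all had both arrays below 0 (median -0.26), and Jchain (-1.34, SD 0.26) and Cd79a (-0.68, SD 0.10) were called lower. Of 8 markers of macrophages and dendritic cells, which make BAFF and APRIL, 5 lay below 0 on both arrays and 2, Flt3 and Itgam, above 0 on both. Their median was -0.62, and the medians of the single arrays were nearer to 0, at -0.45 on the Cy5 array and -0.38 on the Cy3 array. H2-Eb1 (-0.82, SD 0.03) and Cd74 (-0.75, SD 0.15) were called lower. The part of these cells in the ratios of Cd40, BAFF and APRIL was not tested.

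Tnfsf12, known as TWEAK, stood at -0.19 on the Cy5 array and -0.44 on the Cy3 array (mean -0.32, SD 0.17). Tnfsf12 and Tnfsf13 are neighbours on chromosome 11, where the annotation also holds a readthrough gene that joins them, so their features may share transcripts. Their means differed by less than the spread between the arrays. Tnfrsf12a, the receptor of TWEAK, stood at -0.18 and 0.08, on opposite sides of 0. Tnfsf10, known as TRAIL, stood at 0.03 and -0.17, also on opposite sides.

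The remaining members had means above 0. Eda, the ligand of Edar, stood at 0.22 on the Cy5 array and -0.0073 on the Cy3 array. Tnfrsf19, an orphan receptor of epithelial and neural cells, stood at 0.06 and 0.21. Tnfrsf19 was above 0 on both arrays and within the 1.5-fold limits. The mouse receptor genes Tnfrsf22, Tnfrsf23 and Tnfrsf26 lie in a cluster on chromosome 7 and resemble one another, so the assignment of their features is uncertain. Tnfrsf22 stood at 0.33 and -0.31 (mean 0.01, SD 0.45), which are of similar size and opposite sign. Tnfrsf23 stood at 0.03 and -0.00015, and Tnfrsf26 at 0.04 and 0.28.

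The median of the 16 ligands was -0.12 (arrays -0.10 and -0.16) and that of the 26 receptors -0.04 (arrays -0.08 and 0.0023). The difference of the medians, ligands minus receptors, was -0.08, with -0.02 on the Cy5 array and -0.17 on the Cy3 array. With the Cy3 column read the other way, the order turned, at 0.0018 for ligands and -0.038 for receptors. With 1 pool per genotype, the difference between the classes could not be tested. Of the ligands, 10 lay below 0 on both arrays, none above and 6 on opposite sides. Of the receptors, 11 lay below 0 on both arrays, 5 above and 10 on opposite sides. Each class held 1 called gene, Ltb among the ligands and Fas among the receptors.

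Set beside their partners, 19 pairs of a ligand and a receptor had both genes on the array. The ligand had the lower ratio on both arrays in 9 pairs, the receptor in 5 pairs, and the arrays gave different orders in 5 pairs. Several genes enter more than 1 pair, so the pairs are not independent. By the mean, the widest gap with the ligand lower was between Ltb and Ltbr, at -1.25 for ligand minus receptor. It was -1.91 on the Cy5 array and -0.59 on the Cy3 array. The gap between Tnfsf11 and Tnfrsf11a was -0.69 (arrays -0.78 and -0.60), slightly the wider on the Cy3 array. That between Tnf and Tnfrsf1b was -0.52 (arrays -0.77 and -0.26). With the receptor lower, the mean gaps were 0.59 for Fasl and Fas (arrays 0.27 and 0.90) and 0.36 for Cd40lg and Cd40 (arrays 0.43 and 0.29). For Cd70 and Cd27 the mean gap was 0.25 (arrays 0.21 and 0.29).

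**Figure D3:**
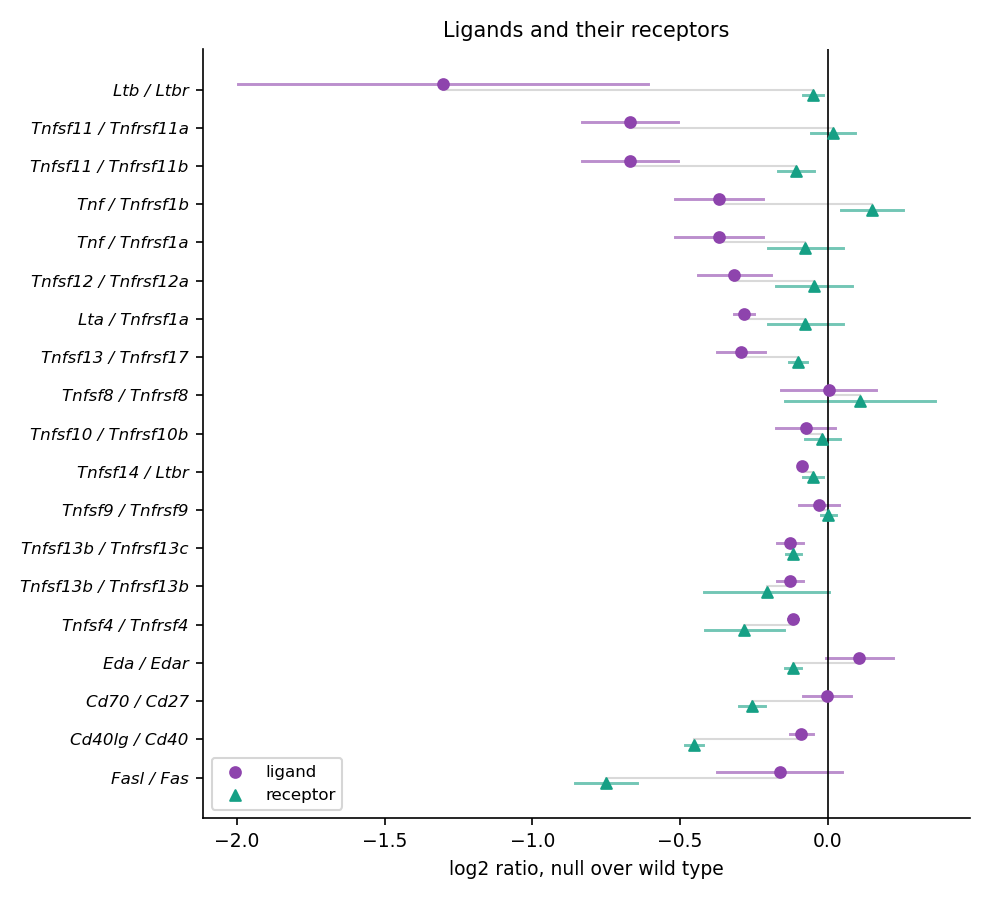
Log2 ratio of null over wild type (x axis) of the ligand (circles) and the receptor (triangles) in 19 pairs, ordered by the difference of the means; symbols are means and bars run between the values of the 2 arrays. Pairs at the top, led by Ltb with Ltbr, have the lower ligand, and pairs at the bottom, ending with Fasl and Fas, the lower receptor.

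Of 36 measured genes that signal downstream of TNF receptors, none was called in either direction. Of all genes, 1.11% were called lower and 0.412% higher, so a list of 36 may hold no called gene at these shares. Below 0 on both arrays lay 16 of the signalling genes (44.4%), above 0 on both 3, and on opposite sides 17. Of all genes, 25.0% lay below 0 on both arrays and 25.0% above 0 on both. The median of the signalling genes was -0.13 (arrays -0.15 and -0.08). Nfkb2, the precursor of the NF-kappaB subunit that lymphotoxin and RANK signals process, stood at -0.75 on the Cy5 array and -0.55 on the Cy3 array (mean -0.65, SD 0.14). It fell short of the rule on the second array alone. Birc2, a ubiquitin ligase of the receptor complexes, stood at -0.48 and -0.25 (mean -0.37, SD 0.16). Ripk3, the kinase of necroptosis, had the highest mean of the list at 0.35 (arrays 0.38 and 0.32, SD 0.04). Tnfaip3, which encodes the NF-kappaB inhibitor A20, stood at -1.75 and 0.28 (SD 1.44). Its arrays disagreed in direction, so its mean of -0.73 describes neither array.

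Among 11 measured genes listed as targets of lymphotoxin and RANK signals, Fezf2 and Krt5 were called lower and none higher. Of all genes, 1.11% were called lower and 0.412% higher. The list is short and was chosen with earlier results of these data known. Whether lymphotoxin or RANK signals changed was not tested. The median of the 11 was -0.15 (arrays -0.08 and -0.21). Nfkb2 and Relb are also among the signalling genes, and Krt5 and Aire among the epithelial markers. Fezf2, a regulator of self-antigens in medullary epithelium, stood at -1.12 on the Cy5 array and -1.49 on the Cy3 array (mean -1.30, SD 0.26). Krt5, a keratin of medullary and subcapsular epithelium, stood at -0.86 and -1.10. Aire, the other regulator of self-antigens, stood at -0.18 and -0.24, below 0 on both arrays and within the limits. The chemokine genes Ccl19, Cxcl12 and Cxcl13 and the adhesion genes Vcam1 and Madcam1 lay on opposite sides of 0 and had means between -0.05 and 0.05. Relb, the partner of the Nfkb2 product, stood at -0.41 and 0.10, and Icam1, another adhesion gene, at -0.08 and -0.23. Fezf2, Krt5 and Aire are epithelial genes, and the part of the number of epithelial cells in their ratios was not tested.

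**Figure D4:**
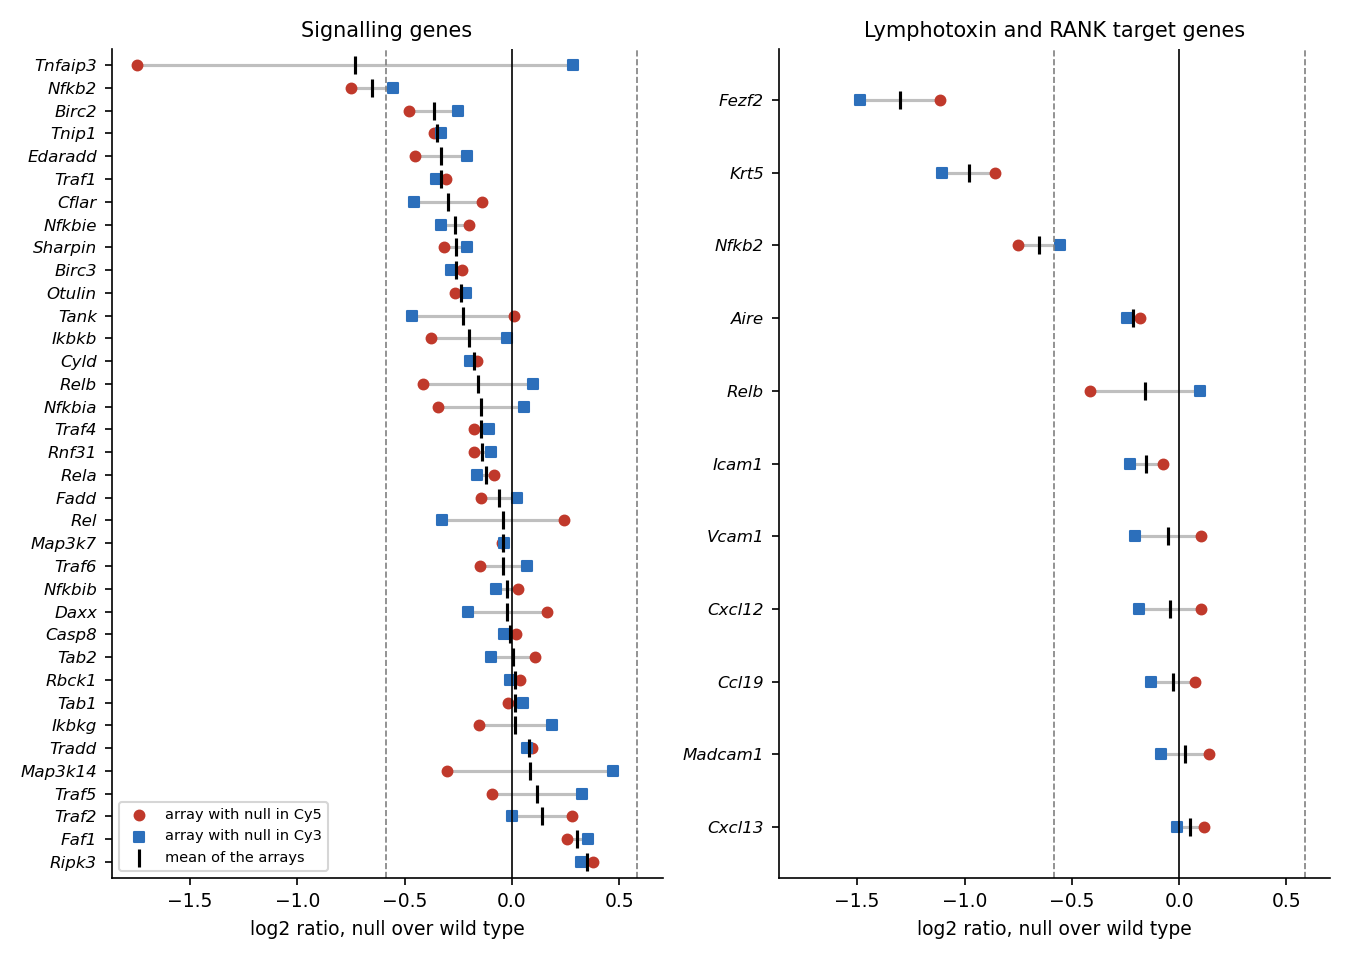
Log2 ratio of null over wild type (x axis) for 36 signalling genes of TNF receptors (left) and 11 genes listed as targets of lymphotoxin and RANK signals (right); circles are the array with null in Cy5, squares the array with null in Cy3, ticks the mean and dashed lines 1.5-fold. No signalling gene has both points beyond a dashed line, while Fezf2 and Krt5 do.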

How the data were processed

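RNA of 3 mice per genotype was pooled, labelled (750 ng of cRNA per dye) and hybridised for 17 h to 2 dye-swapped Agilent arrays, per the labels. The authors deposited log ratios from Agilent Feature Extraction 7.1 at default settings, per the submitters' processing notes and the design text. The deposited ratios were taken as log10, the convention of that software, and converted to log2; base, centring and direction are not stated. The medians over all features were -0.0014 (null in Cy5) and 0.0011 (null in Cy3), so none was subtracted. Both columns were read as null over wild type. Between the features of 1030 genes that have 2, r was 0.326 for the mean of the columns and 0.0386 for their difference.

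Of 22393 features, 18218 have 1 symbol, 16 several and 4159 none. Symbols of 18175 were updated by gene ID (RefSeq, GRCm38.p6, for names and gene order only) and features of a gene averaged. No source used here gives the genome build of the array. With 1 pool per genotype no test was possible, and the number of arrays limits the precision. The members, lists and rules were chosen with earlier results of these data known. Values per array are given for members past 1.5-fold on either array, for both classes compared, and briefly for the rest; of the signalling list, called genes or the 4 with the largest mean ratio. Tnfsf15 and Tnfsf18, and 6 signalling genes (Traf3, Ripk1, Map3k5, Chuk, Nfkb1 and Madd), were not analysed here, nor is the inactivated gene. Python 3.11.15, numpy 2.4.6, pandas 2.3.3 and matplotlib 3.10.9 were used.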

Additional observations from a re-analysis of the deposited data

How the results depend on the processing

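No paired analysis was possible because 1 pair of pools was on both arrays. Centring the arrays, the median or the largest feature per gene, and finding members by platform symbol left each count and class median within its limits. For the members these settings could change little, so they say little about robustness. Only 1 member had several features, 0 were found by current symbol alone, and the array medians were -0.0047 and 0.0037 on the log2 scale. Over each array alone, the number of members called lower ran from 2 to 3 and called higher from 0 to 1 (Ngfr, null in Cy3), and signalling genes called lower from 0 to 2 (Tnfaip3 and Nfkb2, null in Cy5) and called higher from 0 to 0. The medians ran from -0.16 to -0.10 for ligands, -0.083 to 0.0023 for receptors, -0.20 to -0.17 for lymphotoxin and -0.078 to 0.0084 for death receptors, so the receptor medians changed sign. At 2-fold on both arrays 0 members were lower, beside 0.261% of all genes, and at 1.3-fold 4 members and 1 signalling gene. By the mean of the arrays, 2 signalling genes were lower. Outside the main rule and the 2-fold limit, shares of all genes were not computed, so the other counts lack that comparison. With the deposited ratios taken as log2, 0 members were lower, and the medians were -0.037 for ligands and -0.055 for lymphotoxin. With the column of the array with null in Cy3 taken as wild type over null, 0 members were called lower, Ltb stood at -0.69 and Fas at 0.11, and the medians were 0.0018 for ligands, -0.038 for receptors, -0.023 for lymphotoxin and -0.027 for death receptors, so that both orders turned. Without members whose arrays differ by over 1 (Ltb), the lymphotoxin median was -0.087. Beyond fewer genes or a changed scale, the cause was not tested. Signal over background is unknown.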

Other observations

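Across the 42 members, Pearson's r between the 2 arrays was 0.553 and Spearman's rho 0.441, and r was 0.414 without Ltb and Fas, beside r = 0.238 across all genes. These are descriptions across genes that share the same pools, and genes are not independent replicates. Of the 42, 26 had the lower ratio on the array with null in Cy5. An SD between the arrays of over 0.3 was found in 4 members (9.52%), namely Ltb, Tnfrsf22, Ngfr and Tnfrsf8, and in 2642 of all 16504 genes.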
